A study of Mus musculus with 24 samples.

Results

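Choroid plexus from wild-type (WT) mice aged 11-12 months was compared with that from WT mice aged 3 months. The choroid plexus is the folded tissue inside the brain ventricles whose epithelium secretes cerebrospinal fluid and transthyretin and forms the barrier between blood and that fluid, around a stroma of fenestrated vessels, fibroblasts and macrophages. The arrays were chosen by their titles: 6 arrays of 11-12 months and 3 of 3 months, out of 24 arrays in 6 groups of genotype and age. Each array held biotin-labelled RNA of choroid plexus tissue on an Illumina bead array, and animals are named here by the last number of their title. The remaining groups were WT mice of 5-6 months (n = 4) and J20 mice of 3 (n = 4), 5-6 (n = 4) and 11-12 months (n = 3). J20 is a transgenic mouse model of Alzheimer's disease that carries mutant human amyloid precursor protein. The labels used here state no strain, sex or hour of dissection, and do not say whether the WT animals were littermates of the J20 animals.

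Of 25697 probes in the deposited table, 11464 had a detection p under 0.01 on at least 3 of the 24 arrays and were tested, and 10825 of them carried the symbol of 1 of 8232 genes. Levels below are background-corrected, quantile-normalized log2 intensities, so 1 unit is a doubling of signal, and a level of one probe is not set against that of another. The mean intensity before normalization was 627 at 3 months and 643 at 11-12 months (two-sided exact permutation test, p = 0.833, where the smallest possible p is 0.0238). The arrays lay on 3 BeadChips, each with 1 array of 3 months and 2 of 11-12 months, so that age could be compared within each chip. Animal 15 of 3 months stood apart, with a median correlation of 0.931 to the other 8 arrays against 0.961 to 0.984 for those. Animal 5 of 11-12 months had growth hormone (Gh) at 12.62 and prolactin (Prl) at 12.69, while the highest levels on the other arrays were 8.43 and 6.96. Animal 13 of 11-12 months had the inhibitory-neuron markers Gad1 at 9.86 and Slc32a1 at 10.88, while the highest on the other arrays were 6.80 and 6.83. The epithelial identity of the tissue was plain on every array: transthyretin (Ttr), its main secreted protein, lay between 14.75 and 15.08.

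Between 3 and 11-12 months, 12 probes passed an adjusted p of 0.05 in limma's moderated test across all 24 arrays, 7 higher and 5 lower in the older mice, which is 0.105% of the probes tested (0.0611% higher and 0.0436% lower). Before adjustment 505 probes, or 4.41%, had p under 0.05. The genes that rose were Serpina1b and Serpina1d (alpha-1-antitrypsins, of the serpin family), Prom2 (prominin 2, a membrane glycoprotein of cell protrusions), Tlx2 (a homeobox transcription factor) and Chrna4 (a nicotinic acetylcholine receptor subunit). The genes that fell were Ciart (a repressor of the circadian clock), Arhgap24 (a GTPase-activating protein for Rac), Ndn (necdin, an imprinted gene expressed from the paternal allele) and C1qtnf1 (a secreted protein related to C1q and tumour necrosis factor). All 12 probes differed in the same direction on each of the 3 BeadChips, which their choice by a small p favours, and the groups did not overlap for 11 of them, where 0.951% of all tested probes were higher and 1.06% lower without overlap. In bulk tissue, a change in the number of cells of a type and a change in RNA per cell cannot be told apart.

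**Figure D1:**
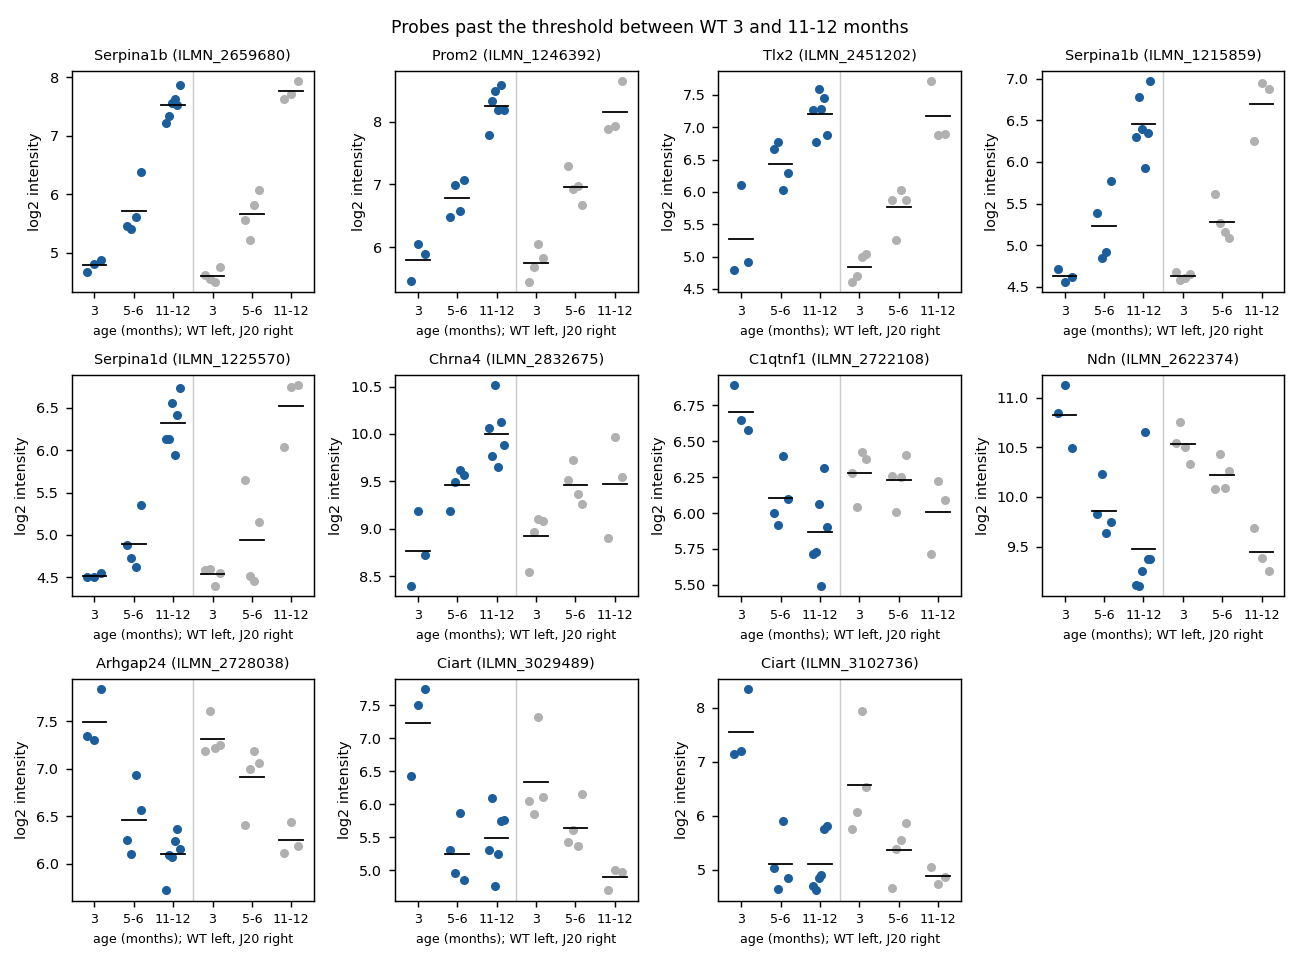
Log2 intensity of the 11 called probes that carry a gene symbol, by age in months, for WT (blue) and J20 (grey) mice; each point is 1 array and each line a group mean. The WT arrays of 3 and 11-12 months do not overlap in any panel but that of Ndn, where animal 13 of 11-12 months lies at 10.65.

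Serpina1b had the smallest p of all probes. On one probe its level was 4.68, 4.82 and 4.88 in the 3 young animals, and from 7.22 through a median of 7.54 to 7.87 in the 6 older ones. Every older animal lay far above every young one, and the probe was detected on 0 of 3 young and 6 of 6 older arrays. The log2 difference was 2.73 with an SE of 0.196 (limma adjusted p = 3.93e-08). Because the probe was not above background at 3 months, the older level is at least 3.69-fold higher, with the young level set at the lowest signal among detected probes where that was higher. Another probe of Serpina1b rose by 1.82 on the log2 scale (limma adjusted p = 1.19e-04), at least 1.75-fold. Serpina1d was at 4.51, 4.50 and 4.55 in the young animals and between 5.94 and 6.73, with a median of 6.28, in the older ones. It was likewise undetected at 3 months and detected on all 6 arrays of 11-12 months, a difference of 1.80 with an SE of 0.234 (limma adjusted p = 3.98e-04) and at least 1.60-fold. WT animals of 5-6 months lay between, at a mean of 5.72 for the first Serpina1b probe and 4.89 for Serpina1d.

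Serpina1a to Serpina1e are near-identical neighbours in the mouse, so signal may be shared between their probes. The probes of Serpina1a, Serpina1c and Serpina1e were detected on 0 of the 24 arrays. The RefSeq promoters (build GRCm38.p6, 250 bases before and 50 after the annotated start) of the 5 genes were aligned in pairs. Gaps left out, 237 to 298 of the 300 bases were aligned, and 91.7% to 98.4% of those were identical. All 5 promoters shared an unbroken run of 59 bases. The promoters of both genes that rose are shown, read 5′ to 3′ on the gene's strand, with that run in capitals, to show how alike the copies are.
Serpina1b promoter, chr12:103738140-103738439, minus strand: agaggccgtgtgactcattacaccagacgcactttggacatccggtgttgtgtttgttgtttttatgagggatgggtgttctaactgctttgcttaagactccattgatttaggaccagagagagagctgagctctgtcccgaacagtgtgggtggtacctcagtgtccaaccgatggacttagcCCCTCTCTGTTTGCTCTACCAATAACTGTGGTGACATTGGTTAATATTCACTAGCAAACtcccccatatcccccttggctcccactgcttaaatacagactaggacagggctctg
Serpina1d promoter, chr12:103773584-103773883, minus strand: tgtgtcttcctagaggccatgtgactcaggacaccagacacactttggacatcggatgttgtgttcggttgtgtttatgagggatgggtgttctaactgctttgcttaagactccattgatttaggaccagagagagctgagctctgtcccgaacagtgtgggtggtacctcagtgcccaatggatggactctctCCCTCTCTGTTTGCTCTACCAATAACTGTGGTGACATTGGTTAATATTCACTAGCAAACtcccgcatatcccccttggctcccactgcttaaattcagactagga
The same capitals stand in the promoters of the copies whose probes were undetected. Most bases outside the capitals are shared between copies too: over 288 aligned bases, Serpina1b and Serpina1d were 94.1% identical.

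Prom2 was at 5.45, 6.06 and 5.89 at 3 months and between 7.79 and 8.58, with a median of 8.26, at 11-12 months. No older animal came near the young ones, and the 5-6-month mean of 6.78 lay between. The probe was detected on 2 of 3 young and 6 of 6 older arrays, so the young level lies partly at background. The difference in measured signal was 2.46 with an SE of 0.209 (limma adjusted p = 4.79e-07), or 5.52-fold. The other 3 probes of Prom2 did not pass the detection filter. Prom2 was the member called among 7 tested genes of microvilli and membrane protrusions, where 0.109% of all genes were called. Of the 7, Prom2 included, 6 lay above 0, where 47.3% of all genes did. Their median was 0.17 (from 0.09 to 0.39 when 1 array was left out, and 0.05 with array weights) against -0.01 over all genes. Myo7a (0.63, an unconventional myosin), Eps8l2 (0.36) and Slc9a3r1 (0.09, a scaffold of microvilli) were not called.

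Tlx2 was at 4.79, 6.11 and 4.91 in the young animals and between 6.77 and 7.59, with a median of 7.28, in the older ones. Animal 15 was the highest of the young group and still lay below all older animals. The probe was detected on 1 of 3 young and 6 of 6 older arrays, so the young level lies mostly at background. The difference in measured signal was 1.94 with an SE of 0.270 (limma adjusted p = 8.67e-04). Chrna4 was at 8.4, 9.19 and 8.73 at 3 months and between 9.65 and 10.52, with a median of 9.97, at 11-12 months, a difference of 1.23 with an SE of 0.220 (limma adjusted p = 0.018). That call was lost without young animal 1 (0.298) or young animal 22 (0.12). A further Chrna4 probe was higher by 1.07 without a call (limma adjusted p = 0.302), and the gap on BeadChip 2, which holds animal 15, was 0.24. A probe without a gene symbol, ILMN_2944601, rose from a mean of 8.71 to 9.77, by 1.06 (limma adjusted p = 0.00361, and 0.0847 without young animal 1).

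Arhgap24 was at 7.35, 7.30 and 7.84 in the young animals and between 5.72 and 6.37, with a median of 6.12, in the older ones. The groups were separated by a wide gap, and the difference was -1.39 with an SE of 0.195 (limma adjusted p = 8.67e-04). Ndn was at 10.85, 11.13 and 10.50 at 3 months and ran from 9.10 through a median of 9.32 to 10.65 at 11-12 months. The highest older animal was number 13, which fell within the young range, while the other 5 older animals lay at 9.38 or below. The difference was -1.35 with an SE of 0.249 (limma adjusted p = 0.0259), and 1 of 19 tested imprinted genes was called, where 0.109% of all genes were. Nnat (0.59), Grb10 (0.37) and Impact (0.17) were not, and the list's median was 0.08, or -0.03 without young animal 22. C1qtnf1 was at 6.89, 6.65 and 6.57 in the young animals and between 5.49 and 6.31 in the older ones, a difference of -0.84 with an SE of 0.166 and a limma adjusted p of 0.0498, just inside the threshold. The call for Ndn was lost without any 1 of young animals 1 and 15 and older animals 5, 6, 12, 26 and 34, with adjusted p-values from 0.0548 to 0.19, and held without animal 13 or 22. That for C1qtnf1 was lost without any 1 animal but number 26, with values from 0.0549 to 0.477 (limma).

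The circadian clock is a feedback loop in which the activators Clock and Arntl (Bmal1) drive the repressors of the Per and Cry families, the nuclear receptors Nr1d1 and Nr1d2, which repress Arntl, and the output factors Dbp and Tef. The choroid plexus is known to hold a strong clock of its own. Ciart, which represses the activators, was at 7.14, 7.19 and 8.35 in the young animals and between 4.62 and 5.81, with a median of 4.87, in the older ones. The groups were far apart, but the probe was detected on 2 of the 6 older arrays, so the older level lies mostly at background. The difference in measured signal was -2.46 with an SE of 0.409 (limma adjusted p = 0.0078), which became 0.125 without young animal 22. Another Ciart probe fell by 1.74 on the log2 scale (limma adjusted p = 0.0383), a call lost without any 1 of animals 5, 12, 13, 15, 22, 26 and 34, with adjusted p-values from 0.0509 to 0.297.

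No other clock gene was called, and their values follow as measured. Dbp was at 12.92, 13.11 and 13.15 at 3 months and between 10.28 and 12.21, with a median of 11.25, at 11-12 months, a difference of -1.75 (limma adjusted p = 0.0999). Arntl was at 4.61, 4.49 and 4.72, below detection on all 3 young arrays, and between 5.35 and 6.51 in the older ones, at least 1.15-fold higher (limma adjusted p = 0.302). Clock was at 10.28, 10.32 and 9.86 and then between 10.34 and 10.92, a difference of 0.52 (limma adjusted p = 0.333). All 3 of these genes had no overlap between the ages. Within the older group, animals 26 and 34 had the highest Dbp (12.21 and 11.87) and the lowest Arntl (5.35 and 5.43), while animal 13 had the lowest Dbp (10.28).

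Of 16 clock genes tested, 6 lay above and 10 below 0, with a median of -0.28. That median ran from -0.44 (without young animal 22) to -0.25 when 1 array was left out, was -0.18 under median scaling, and was -0.29, -0.60 and 0.02 on the 3 BeadChips. Of the 16 genes, 3 higher and 5 lower had an unadjusted p under 0.05, where 2.07% and 2.72% of all genes did. The groups did not overlap for 3 that were higher (Arntl, Clock and Nfil3) and 4 that were lower (Ciart, Dbp, Tef and Per2), where over all genes 1.11% were higher and 1.29% lower without overlap. The members beyond the leading 4 were named after their values were seen. Nfil3, a repressor of the genes that Dbp activates, differed by 1.08 (limma adjusted p = 0.507), Tef by -0.85 (0.466) and Per2 by -1.06 (0.534). The groups overlapped for Nr1d2 (-0.86), Nr1d1 (-0.72), Npas2 (0.42) and Per1 (-0.45). In J20 mice, whose arrays do not enter the WT means, the same 3 genes were higher without overlap between 3 and 11-12 months. Ciart, Dbp and Tef were lower without overlap, against 5.89% (higher) and 3.26% (lower) of all genes. The J20 arrays did count in the detection filter and in the shared estimate of spread. Time of day at dissection moves these genes in any tissue with a clock, and its part in the result was not tested.

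**Figure D2:**
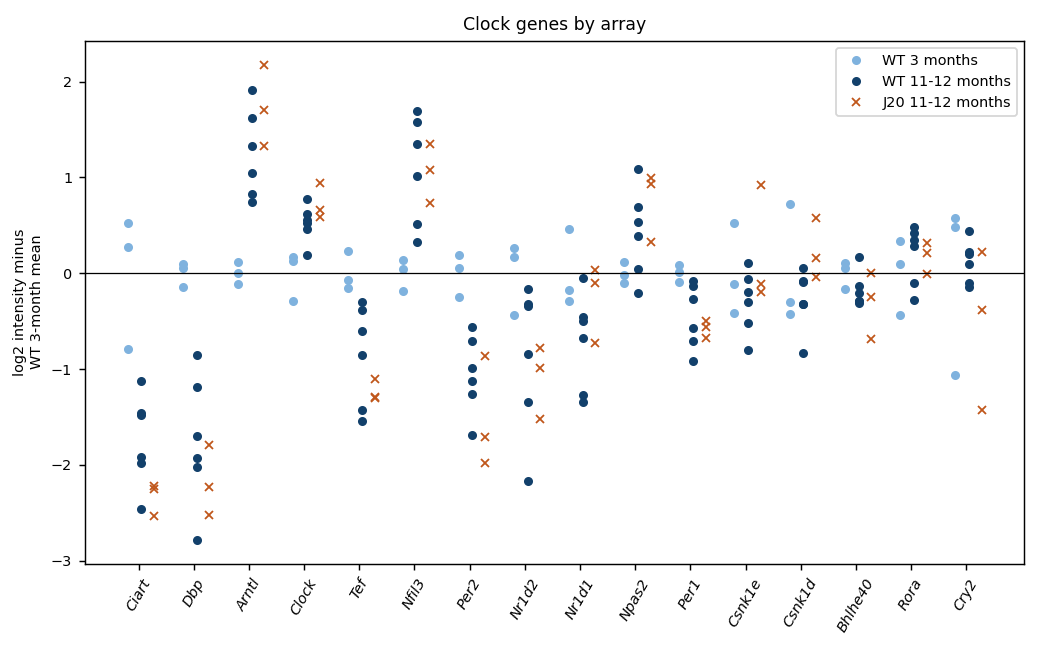
Log2 intensity of the 16 clock genes on each array, minus the WT 3-month mean of that gene, for WT mice of 3 and 11-12 months and J20 mice of 11-12 months; each point is 1 array, and genes run from the smallest p to the largest. The 7 genes on the left have WT ages that do not overlap, with Arntl, Clock and Nfil3 above 0 and Ciart, Dbp, Tef and Per2 below.

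Of the clock genes whose ages did not overlap, the promoters that hold a motif are shown, with the E-box CACGTG, the site of the Clock and Arntl pair, or the core TAGGTCA, the site of the Nr1d and Ror receptors, in capitals. Both strands were searched, so TAGGTCA may be printed as TGACCTA. The motifs were chosen with the values known, and the promoters for holding one. Ciart is the called gene among them.
Ciart promoter, chr3:95882179-95882478, minus strand: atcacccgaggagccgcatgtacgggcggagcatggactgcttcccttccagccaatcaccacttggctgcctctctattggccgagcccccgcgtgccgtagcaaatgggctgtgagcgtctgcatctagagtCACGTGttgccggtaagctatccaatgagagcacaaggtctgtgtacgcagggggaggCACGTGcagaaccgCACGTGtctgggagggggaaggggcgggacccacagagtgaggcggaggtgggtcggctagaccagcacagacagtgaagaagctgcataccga
Tef promoter, chr15:81802423-81802722, plus strand: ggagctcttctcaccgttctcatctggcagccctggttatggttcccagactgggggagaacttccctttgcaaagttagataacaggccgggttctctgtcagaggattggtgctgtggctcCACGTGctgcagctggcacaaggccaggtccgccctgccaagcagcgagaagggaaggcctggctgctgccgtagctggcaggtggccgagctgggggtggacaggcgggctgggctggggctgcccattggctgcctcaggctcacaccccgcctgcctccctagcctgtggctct
Arntl promoter, chr7:113207261-113207560, plus strand: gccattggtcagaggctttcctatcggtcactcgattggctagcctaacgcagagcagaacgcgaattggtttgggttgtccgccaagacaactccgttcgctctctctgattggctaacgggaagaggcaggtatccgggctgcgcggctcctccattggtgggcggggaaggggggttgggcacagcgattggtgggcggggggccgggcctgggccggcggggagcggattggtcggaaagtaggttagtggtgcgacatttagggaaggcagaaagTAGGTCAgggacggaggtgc
Nfil3 promoter, chr13:52980990-52981289, minus strand: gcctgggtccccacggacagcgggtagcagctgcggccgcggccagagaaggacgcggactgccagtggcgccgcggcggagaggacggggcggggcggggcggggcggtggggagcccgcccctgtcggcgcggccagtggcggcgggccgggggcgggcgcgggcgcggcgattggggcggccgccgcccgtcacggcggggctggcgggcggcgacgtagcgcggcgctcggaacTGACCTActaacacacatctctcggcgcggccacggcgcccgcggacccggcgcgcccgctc
Ciart held 3 E-boxes and Tef 1, and Arntl and Nfil3 each held 1 TAGGTCA. Of 32851 RefSeq promoters of this length, 7.15% held the E-box and 2.61% TAGGTCA. Among the 13 clock genes tested that had a promoter in the table, 3 held an E-box (Ciart, Per1 and Tef) and 2 held TAGGTCA. A gene can have several promoters and was counted if any of them matched, so these counts are not comparable with the shares per promoter. A further motif searched, the D-box TTATGTAA, was held by 0 of the 13 clock genes and by 0.938% of all promoters. A match describes letters and not a bound site.

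**Figure D3:**
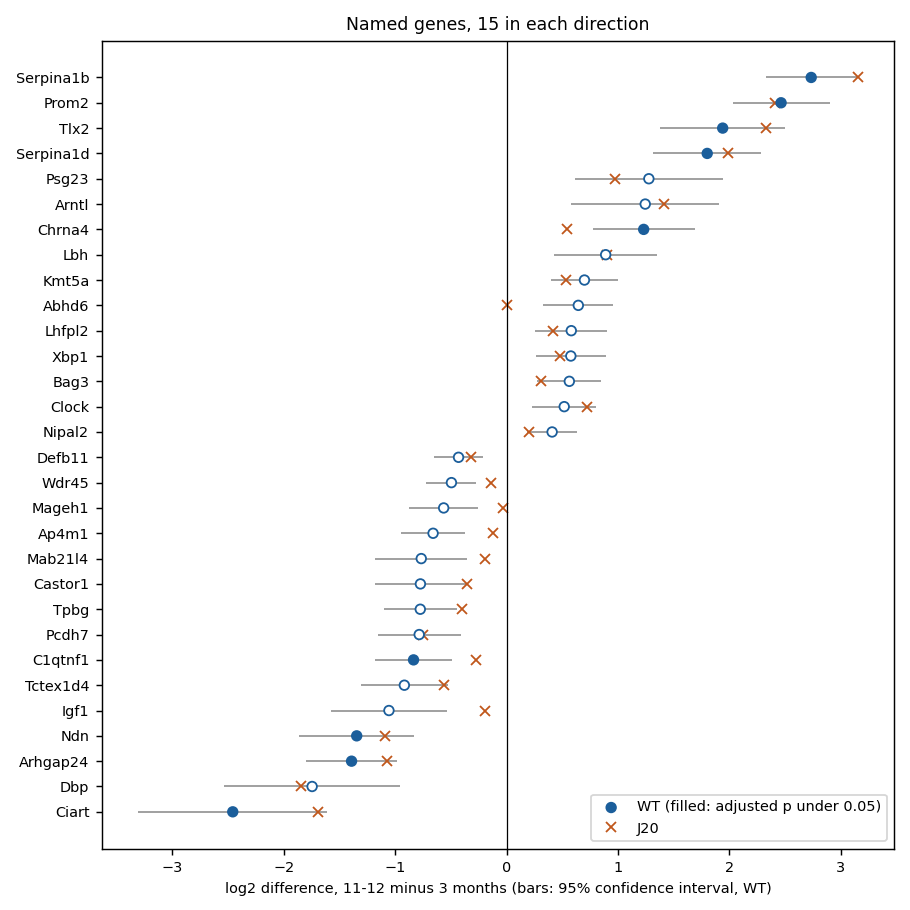
Log2 difference between 11-12 and 3 months for the 15 higher and 15 lower genes with the smallest p in WT mice; circles are WT with their 95% confidence interval, filled where the adjusted p was under 0.05, and crosses are J20. Serpina1b at 2.73 and Ciart at -2.46 mark the ends of the WT range. For probes not above background at 1 age (Serpina1b, Serpina1d and Arntl in WT) the difference is one of measured signal.

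Beyond the called genes, the named set was filled to 15 genes in each direction by the smallest p, and these further genes are values without a call. On the higher side they were Kmt5a (0.70, a histone H4 lysine methyltransferase), Abhd6 (0.64, a monoacylglycerol lipase), Bag3 (0.56, a co-chaperone), Lbh (0.89), Psg23 (1.28), Nipal2 (0.41), Lhfpl2 (0.58) and Xbp1 (0.58), beside Arntl and Clock. On the lower side were Tpbg (-0.77), Tctex1d4 (-0.92), Ap4m1 (-0.66), Wdr45 (-0.49), Pcdh7 (-0.78), Igf1 (-1.06), Defb11 (-0.43), Castor1 (-0.77), Mab21l4 (-0.77) and Mageh1 (-0.56), beside Dbp. With BeadChip as a block, Tpbg (limma adjusted p = 0.0369), Kmt5a (0.0369), Pcdh7 (0.0147), Abhd6 (0.0369), Igf1 (0.0203) and Psg23 (0.0369) also passed.

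Igf1, the insulin-like growth factor that signals through Igf1r, was at 6.81, 7.21 and 7.08 at 3 months and between 5.44 and 6.30, with a median of 6.03, at 11-12 months. Every older animal lay below every young one (limma adjusted p = 0.202). None of 12 tested genes of the insulin-like growth factor system was called, with a median of -0.12 that ran from -0.37 without young animal 1 to 0.01 without young animal 15. Igf2, which the plexus secretes into the cerebrospinal fluid, differed by -0.05 and Igfals by -0.57, Igfbp4 by -0.62 and Igfbp6 by 0.43.

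Genes of protein folding gave no call. Of 17 unfolded protein response genes, 16 lay above 0, where 47.3% of all genes did, with a median of 0.11. Xbp1, whose spliced form drives the response, was at 12.07, 12.35 and 12.30 and then between 12.61 and 13.02 (limma adjusted p = 0.313). Creld2 (0.97), Sel1l (0.27) and Hspa5 (0.23, on a probe below detection at 3 months) were not called either. Without young animal 1, and likewise without young animal 15, the count above 0 was 11 of 17. Among 12 temperature-response genes, the cold-inducible Cirbp was at 9.44, 8.62 and 8.84 at 3 months and between 7.26 and 8.46 at 11-12 months, a difference of -1.02 (limma adjusted p = 0.444). The heat-shock genes Chordc1 (0.66), Hsph1 (0.58, but -0.10 on BeadChip 2) and Fkbp4 (0.26) lay above 0. Of the 12 genes 9 lay above and 3 below 0 with a median of 0.21, and none was called. Without young animal 15 the median was 0.07, with 8 above 0.

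Of 41 tested genes of the choroid plexus epithelium none was called. Of these 19 lay above and 22 below 0, and their median was -0.02 (from -0.05 to 0.06 when 1 array was left out). Ttr differed by -0.07, but it sits among the brightest ranks of every array, where quantile normalization gives arrays the same values, so a difference could be compressed there. Otx2, the homeobox factor of the plexus, differed by 0.27 and the water channel Aqp1 by 0.22. The transporters Slc12a4 (-0.62) and Slco1a5 (-0.42) and the channel Trpv4 (0.32) had the smallest p-values of the list. Kl, the anti-ageing factor klotho, had probes that disagreed: one lay between 13.33 and 13.97 in all 9 animals and differed by 0.07, and the other, at 6.23 in animal 15 against 10.14 and 10.13 in the other young animals, differed by -0.61 with an SE of 1.07. Of 21 cilia genes 17 lay below 0 with a median of -0.11, led by Tctex1d4 (limma adjusted p = 0.0634). Without young animal 15 the median was -0.02 and 12 lay below 0, as 12 did under median scaling. Among the others were Ift88 at -0.27, Dynlrb2 at -0.21 and Dnali1 at -0.35.

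Markers of the other cells of the plexus, and of adjoining brain, moved with single arrays. Of 19 endothelial genes 17 lay below 0, where 52.7% of all genes did, with a median of -0.44, including Cd34 (-0.45), Nos3 (-0.47), Ramp2 (-0.35) and Pecam1 (-0.59), and none was called. Without young animal 1 the median was -0.87 and without young animal 15 it was -0.17, with 16 genes still below 0. With animals 5, 13 and 15 all left out it was -0.05, with 11 genes below 0, and with array weights it was 0.07, with 9 below 0. Of 12 pericyte and smooth muscle genes 11 lay below 0 with a median of -0.40 (Kcnj8 -0.73, Notch3 -0.70, Rgs5 -0.95, Acta2 -0.58), with a range from -0.82 without animal 1 to -0.22 without animal 15 and a value of -0.14 without those 3 arrays. Of 32 fibroblast genes 24 lay below 0 with a median of -0.16 (Ogn -0.44, Col14a1 -0.53, Col1a1 -0.69, Nid1 -0.43), which was -0.37 without animal 1, 0.02 without animal 15 and 0.13 without the 3 arrays. With array weights the pericyte and smooth muscle median was 0.02, with 6 genes below 0, and the fibroblast median 0.18, with 9 below 0.

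Of 22 neuronal genes 20 lay above 0 with a median of 0.49 (Nefh 0.997, Olfm1 0.28, Gad1 1.09, Slc32a1 1.29). Without older animal 13 the median was 0.10 and 14 lay above 0, while without young animal 15 it was 0.76. With animals 5, 13 and 15 all left out it was 0.42, with 19 above 0. With array weights it was 0.57, with 20 above 0. Astrocyte and ependymal genes moved alike, with a median of 0.37 (Aldoc 0.60, Agt 0.32, Aldh1l1 0.34, Sox9 0.49) that became 0.06 without animal 13. The astrocyte and ependymal median was 0.20 without animals 5, 13 and 15, and 0.18 with array weights. Of 4 erythroid genes 3 lay below 0 (Hbb-bt -0.78, Hba-a1 -1.44, Alas2 -0.80), while Slc4a1 was at 0.07. Of 18 macrophage genes 14 lay above 0 with a median of 0.12, and none was called. That median was -0.16 without young animal 1, with 3 above 0, -0.01 without older animal 26 and 0.37 without young animal 15. With array weights it was 0.57, and without animals 5, 13 and 15 it was 0.43, each with 17 above 0. Among the macrophage genes were Mrc1 at -0.84, Lyz2 at 1.01, Lyz1 at 0.47 and Ms4a7 at 0.34.

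**Figure D4:**
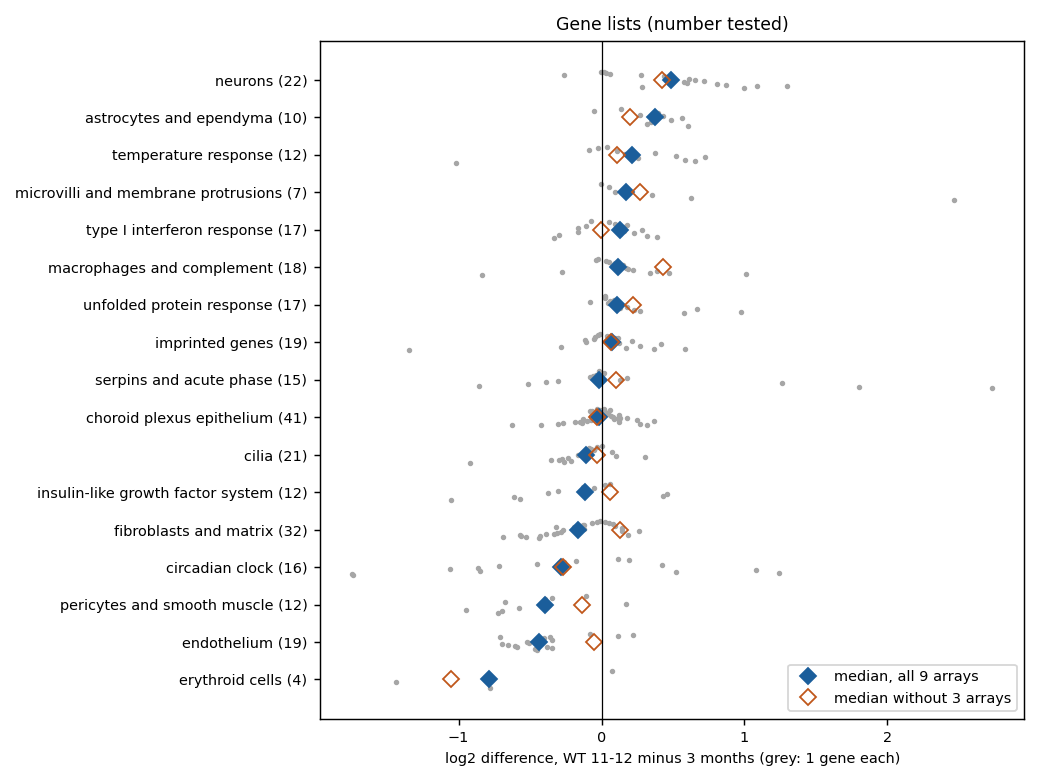
Log2 difference between WT mice of 11-12 and 3 months for each tested gene of 17 lists (grey points, 1 per gene), with the list median over all 9 arrays (filled) and without animals 5, 13 and 15 (open). Without these arrays the endothelial median moves from -0.44 to -0.05 and the fibroblast median from -0.16 to 0.13.

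In the acute-phase and serpin list 2 of 15 tested genes were called, both of them Serpina1 genes, where 0.109% of all genes were called, and the median was -0.02, or 0.08 without young animal 15. The iron exporter Slc40a1 was at 6.48, 6.49 and 6.61 at 3 months and between 5.17 and 6.25 at 11-12 months, a difference of -0.86 (limma adjusted p = 0.356), and Serpinb1a differed by -0.52. Of 17 type I interferon genes, the theme named in the study's title for the J20 mice, 11 lay above 0 with a median of 0.13 (-0.04 without older animal 13) and none was called. Ifit2 differed by -0.33, Bst2 by 0.39, Stat2 by 0.31 and Oasl2 by -0.30.

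The age difference was also read in J20 mice, whose arrays do not enter the WT means. Those arrays did count in the detection filter and in the estimate of spread behind the WT p-values, so they are not fully separate from the calls. Serpina1b, Serpina1d and Tlx2 were detected in J20 mice on 0 of 4 arrays of 3 months and 3 of 3 of 11-12 months. They were at least 4.86-fold, 2.05-fold and 3.2-fold higher. The leading Ciart probe went from 4 of 4 arrays to 0 of 3 and was at least 1.83-fold lower. Prom2 differed by 2.41, Arhgap24 by -1.07, Chrna4 by 0.55, Ndn by -1.09 and C1qtnf1 by -0.27. All 12 probes had the same sign as in WT mice, and 6 of them passed an adjusted p of 0.05 within J20 (limma), where 7 probes passed in all, 7 higher (0.0611%) and 0 lower. In the test of the difference between the genotypes, 0 of 11464 probes passed an adjusted p of 0.05 and 393, or 3.43%, had an unadjusted p under 0.05 (limma). For Prom2 the age difference of J20 minus that of WT was -0.05, with a 95% confidence interval from -0.69 to 0.59. Without adjustment the interval left out 0 for Chrna4 (-0.68, from -1.36 to -0.01) and C1qtnf1 (0.57, from 0.06 to 1.07), both nearer to no change in J20. The intervals of the other called probes included 0.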

How the data were processed

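Gene expression was measured in choroid plexus of 24 mice, 1 array each. Per the file headers, the authors deposited a linear intensity and a detection p-value for each probe and array. The authors also deposited log2 values, which equal the quantile-normalized log2 of those intensities to within 5e-09 and were used as an alternative. The labels name no scanner or software. Intensities were background-corrected with normexp, quantile normalized and put on the log2 scale with an offset of 16 (neqc, limma 3.58.1, R 4.3.3). Group means were fitted over all 24 arrays, and Benjamini-Hochberg adjustment ran over 11464 probes. Symbols were updated through RefSeq (GRCm38.p6). Tested on simulated data for this comparison, over 11464 probes, the fit recovered 16% of changes of 0.5 on the log2 scale, 68% of 1 and 99% of 2. The simulation held 100 changes of each size at once and called 190 probes, 7 of them falsely. With the 12 calls of the data the adjustment is stricter, so these shares may overstate recovery here. Lists take the brightest probe of a gene. Named genes are those called, then the smallest p to 15 per direction, up to 4 per list, and Ttr, Kl, Aqp1, Otx2 and Igf2. The genes, lists and motifs were chosen with earlier results of these data known. That replicates came from separate animals rests on the number in each title. The number of arrays limits the precision.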

Additional observations from a re-analysis of the deposited data

Results flagged for a closer look

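In the 6 WT animals of 11-12 months, 10 of 104 measures tested (the named probes and 3 measures of array signal), each of them a probe, had 1 animal whose gap to its nearest neighbour took an unusually large part of the group's range (Dixon's criterion), which chance does in about 1 group in 20. For animal 13 the gap was 0.821 of the range for Ndn, 0.661 for Gad1, 0.682 for Slc32a1, 0.656 for Alas2, 0.682 for Aqp1 and 0.656 for Impact. For animal 5 it was 0.843 for Chordc1 and 0.652 for Rgs5. For animal 12 it was 0.653 for Creld2 and 0.662 for Dnali1. Ndn is the called gene among them, and animal 13 is the highest there at 10.65, with the next at 9.38.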

How the results depend on the processing

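No paired analysis was possible because the animal numbers in the titles are unique across groups. The 12 called probes became 19 with BeadChip as a block, 5 with the 9 WT arrays alone, 7 with those and the block, 7 under median scaling (which moves the median of all probes by 0.084) and 72 with array weights, where animal 15 of 3 months weighs 0.175. They ranged from 9 to 19 when 1 array was left out, with 19 (15 higher) without animal 15, and came to 14 and 12 with animals 5 and 15, or 5, 13 and 15, left out, settings chosen after seeing the data. Serpina1b, Prom2 and Serpina1d kept their calls under each alternative run. Arhgap24 lost its call under median scaling (limma adjusted p = 0.113), Tlx2 with the 9 WT arrays alone (0.105) and the leading Ciart probe there (0.075), without young animal 22 (0.125) and without animals 5, 13 and 15 (0.0924). The other Ciart probe, ILMN_2944601, Chrna4, Ndn and C1qtnf1 lost theirs under several. The causes were not tested.

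Some uncalled log2 differences changed sign, among them Igfbp4 (-0.62 as reported), Kl (-0.61) and Acta2 (-0.58). With array weights Igfbp4 was 0.0494, Oasl2 0.1402, Impact -0.0635, Ttr 0.0213 and Igf2 0.0924. Leaving out 1 array at a time, Grb10 ran from -0.0405 to 0.60, Lyz1 from -0.0259 to 0.78, Sox9 from -0.0402 to 0.76, Kl from -1.91 to 0.0475 (0.0414 without young animal 22), Igf2 from -0.14 to 0.0181 and Slc4a1 from -0.0725 to 0.23 (-0.0134 and -0.071 without animals 13 and 22). Without animals 5 and 15, Acta2 was 0.0021, Grb10 -0.1054, Sox9 -0.0997, Aqp1 -0.0108 and Igf2 0.0452. Without animals 5, 13 and 15, Igfbp4 was 0.0169, Dnali1 0.0392, Acta2 0.0609, Impact -0.071 and Igf2 0.0738. Leaving out 1 array, the older minus young mean intensity ran from -39 to 46.8 (-8.6 without animal 5) and the upper quartile from -12.7 to 36.6.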
